A study of Mus musculus with 16 samples.

Results

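The estrogen response of femurs whose osteoclasts lacked estrogen receptor alpha was read from 8 of the 16 arrays of the series, the 4 titled ERaKO-E2-4hr and the 4 titled ERaKO-OVX, chosen by those titles. All 8 mice were female C57BL/6 mice that had been ovariectomized and carried the osteoclast-specific knockout. Of these, 4 received estrogen 4 hours before the bone was taken and 4 formed the control group, which the design text calls vehicle treated although the labels of these mice name no vehicle. The other 8 arrays came from ovariectomized wild-type mice with vehicle or estrogen, 4 of each, and served to estimate the spread and to test whether the responses of the genotypes differed. The sources used here do not give the promoter that drove the deletion, the age of the mice, or the estrogen compound and its dose. Each array held RNA of 1 mouse, without pooling, taken from the last 5 mm of the left femur at its distal end. The bone was homogenized whole with its marrow, so fewer cells of a type and less RNA per cell cannot be told apart.

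Estrogen receptor alpha, the product of Esr1, is a nuclear receptor that binds estrogen and regulates transcription at DNA elements and through other transcription factors. Loss of estrogen after ovariectomy is followed by faster bone resorption by osteoclasts, and the osteoclast receptor is known for its part in the protection of trabecular bone. In these mice only the osteoclast lineage lost the receptor, so osteoblasts, osteocytes, stromal cells, endothelium and marrow cells could still respond through it. The series names Fas ligand, which triggers cell death through its receptor Fas, as its subject.

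Values below are array signals in replicates 1, 2, 3 and 4 of each group, in that order. Differences are estrogen minus vehicle on the scale log2(signal + 16), with the standard error of a limma fit whose terms were the group and whether the replicate was 1 or 2, or else 3 or 4. A gene passed when its p, adjusted by the Benjamini-Hochberg method over 12736 named genes, was under 0.05. Where nothing more is said, p is limma's. Replicates 1 and 2 differed from 3 and 4 in every group, in the summed signal of 22 skeletal muscle genes and in the 18S ribosomal RNA control, and the sources used here do not say what the numbers mark. Knockout estrogen replicate 1 stood apart, with a bacterial spike-in signal of 16394 against 4632 to 7654 on the other knockout arrays. Its Actb control, as the signal at the 3' end over that at the 5' end, was 2.07 against 1.17 to 1.35, and its summed muscle signal was 892521 against 7186 to 295337. Wild-type vehicle replicate 2 and wild-type estrogen replicate 2 were brighter still in the spike-in, at 30298 and 18676. Their Actb ratios were 3.53 and 2.44. Both enter the wild-type differences, the differences between responses and the shared spread. For single genes and list medians, the value without knockout estrogen replicate 1 is given where leaving it out has either of 2 effects. These are ending an unadjusted p under 0.05 and moving the value by over 1.5 times. Counts of list members are not covered by this rule. Defining genes of the tissue were bright in the knockout arrays, with medians of 8656 for the osteoclast protease Ctsk, 30149 for the osteoblast collagen Col1a1, 12898 for the osteocyte gene Dmp1 and 44156 for the neutrophil gene S100a8, while the liver genes Alb and Apoa1 had medians of 112 and 84.1.

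Of 12736 genes, 1 passed as higher after estrogen in the knockout (0.00785%) and 0 as lower (0.0%). At an unadjusted p under 0.05 there were 417 genes higher (3.27%) and 531 lower (4.17%), 948 in all (7.44%). With no difference 636.8 are expected, and genes that vary together can move the count far from that number. Without knockout estrogen replicate 1, 190 genes were higher (1.49%) and 283 lower (2.22%). The numbers were 222 and 336 without knockout vehicle replicate 1, 276 higher without knockout vehicle replicate 2 and 672 higher without knockout estrogen replicate 4. Counts of list members without 1 array, given further on, are to be read against these moving numbers over all genes. Groups did not overlap, with all 4 estrogen arrays above all 4 vehicle arrays, in 191 genes (1.5%), and with all 4 below in 367 (2.88%). Both replicate sets were lower in 26.3% of genes and both higher in 25.7%. In replicates 1 and 2 alone 915 genes (7.18%) were higher and 808 (6.34%) lower at an unadjusted p under 0.05, and in replicates 3 and 4 alone 100 (0.785%) and 227 (1.78%). No gene passed for a difference between these sets in the response (0.0%), and 825 (6.48%) had an unadjusted p under 0.05. Across genes, which are not independent replicates, Pearson's r between the responses of the sets was 0.07.

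Tex2 was the gene that rose. It encodes a protein of the endoplasmic reticulum membrane with a lipid-binding domain. Its signal was 937, 977, 889.6 and 1082 under vehicle and 1617, 1873, 2745 and 2359 after estrogen. Every estrogen array lay above every vehicle array, and the difference was 1.11 ± 0.16 (limma adjusted p = 0.0231), with 0.85 in replicates 1 and 2 and 1.36 in replicates 3 and 4. A second, dimmer Tex2 probe set was 0.71 ± 0.18 higher. In wild type Tex2 rose by 1.04 ± 0.16 (limma adjusted p = 0.0161), and the difference between the responses was 0.06 (limma unadjusted p = 0.781). The call did not hold with the replicate number as a block (replicate block, adjusted p = 0.0789), without the set term (0.0554) on the 8 knockout arrays alone (0.190), or within replicates 1 and 2 (0.165) or 3 and 4 (0.149). The call also ended without the variance trend. Leaving out knockout estrogen replicate 3 (0.177) or 4 (0.0812) or knockout vehicle replicate 1 (0.126), 2 (0.0903), 3 (0.201) or 4 (0.101) ended it as well. The difference itself lay between 0.85 and 1.36 under all 28 alternatives.

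No other gene passed, so the genes that follow are described by their values. They are the 15 of smallest p on each side and members of lists chosen with earlier results of these data known. Of the 15 higher genes 11 had groups without overlap (1.5% over all genes), and of the 15 lower genes 13 (2.88% over all genes). The genes were ranked on these same arrays, so both counts are a description. All 30 differed in the same direction in both replicate sets, which is a description of genes ranked on these arrays. Adjusted p ran from 0.179 to 0.474 for the 29 genes other than Tex2. Of the 15 higher genes 10 had their highest estrogen value on knockout estrogen replicate 1, and of the 15 lower genes 11 had their lowest there. Without that array the difference was smaller in 12 and in 13 of them, and every one of the 30 kept its direction with an unadjusted p under 0.05. The genes were picked for small p on arrays that this fit shares, so this too is a description.

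**Figure D1:**
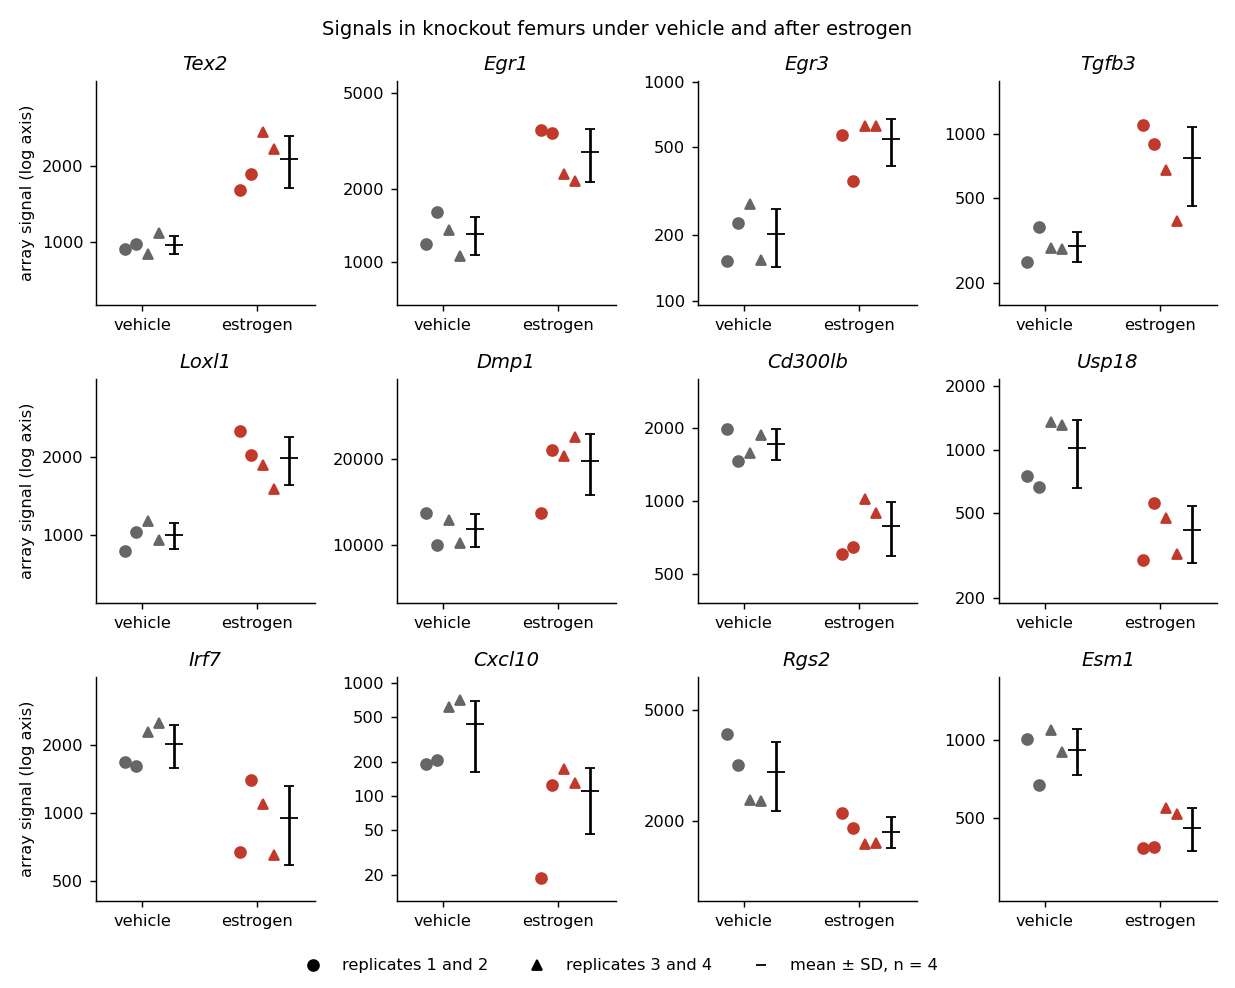
Signal on each of the 8 knockout arrays for 12 named genes, on logarithmic axes, with vehicle in grey and estrogen in red, circles for replicates 1 and 2, triangles for replicates 3 and 4, and the mean ± SD (n = 4) beside each group. Tex2 rises on all 4 estrogen arrays, and Irf7 and Cxcl10 are higher in vehicle replicates 3 and 4 than in 1 and 2.

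Egr1, Egr3 and Nr4a1, 3 transcription factor genes of the early response, were among the 15 higher genes. Egr1, a zinc finger factor that serum, growth factors and hormones induce within minutes, had signals of 1186, 1604, 1356 and 1056 under vehicle and 3486, 3406, 2310.5 and 2155 after estrogen. The groups did not overlap, and the difference was 1.10 ± 0.19 (limma adjusted p = 0.179). The related factor Egr3 read 152, 225, 276 and 154 under vehicle and 573, 352, 628 and 626 after estrogen. It was 1.37 ± 0.28 higher, again without overlap, with estrogen replicate 2 well under the other estrogen arrays. A second Egr3 probe set gave 0.43 ± 0.35. Nr4a1, an orphan nuclear receptor of the early response, was 0.84 ± 0.21 higher, but only replicates 1 and 2 reached 2232 and 1390.5, while replicates 3 and 4 after estrogen (658 and 631) lay within the vehicle range of 471 to 690.5. Wild-type femurs differed in the same direction for all 3, by 0.81 for Egr1, 0.54 for Egr3 and 0.18 for Nr4a1.

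The immediate early list, these 3 included, was split. Of its 23 tested members 12 were higher and 11 lower, with 5 higher (3.27% over all genes) and 2 lower (4.17% over all genes) at an unadjusted p under 0.05. The median was 0.14 against 0.01 over all genes, and below 0 without estrogen replicate 2. Btg2, which restrains proliferation, read 3431, 4138, 2929 and 3895 under vehicle and 1736, 2275, 2809.8 and 1731 after estrogen. It was 0.76 lower on the log2 scale, without overlap between the groups. Of the feedback regulators of ERK signalling, Errfi1, which inhibits the EGF receptor, was 0.81 ± 0.26 higher and the phosphatase gene Dusp1 was 0.70 lower on the log2 scale. That list of 15, with 7 higher and 8 lower, had a median of −0.04, or −0.02 without estrogen replicate 1.

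Tgfb3 and Loxl1 were also among the 15 higher genes. Tgfb3, a TGF-beta ligand, had signals of 252, 365, 294 and 289 under vehicle and 1109, 902, 677 and 389.7 after estrogen. The groups did not overlap, although estrogen replicate 4 lay just above the highest vehicle array, and the difference was 1.23 ± 0.24 (limma adjusted p = 0.244), or 1.07 without estrogen replicate 1. Loxl1, a lysyl oxidase that cross-links elastin, read 865, 1028, 1133 and 954 under vehicle and 2526, 2041, 1871 and 1501 after estrogen. Its difference was 0.97 ± 0.19 (limma adjusted p = 0.244), or 0.87 without estrogen replicate 1. A second, much dimmer Loxl1 probe set gave 0.55 ± 0.50. Wild-type femurs gave −0.04 for Tgfb3 and −0.09 for Loxl1, and the responses of the genotypes differed by 1.27 (limma unadjusted p = 0.00151) and 1.06 (limma unadjusted p = 0.00114), neither of which passed after adjustment.

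In the list of 20 tested collagen and cross-linking genes 17 were higher (51.4% of all genes were). Of them 5 had an unadjusted p under 0.05 (25%, against 3.27% over all genes), and 0 were lower at that level. The median was 0.24, with 0.48 in replicates 1 and 2 and 0.03 in replicates 3 and 4. The lysyl hydroxylase Plod2, which modifies collagen for cross-linking, was 0.57 ± 0.23 higher, the transglutaminase Tgm2 0.66 ± 0.27 and fibronectin, Fn1, 0.55 ± 0.23. Without estrogen replicate 1 Tgm2 was 0.51 higher (limma unadjusted p = 0.0893) and Fn1 0.35 higher (limma unadjusted p = 0.129). The count of 5 was 10 without estrogen replicate 4 and 2 without estrogen replicate 2 or 3 or vehicle replicate 4. It was 3 without estrogen replicate 1 (1.49% over all genes) or vehicle replicate 1 or 2. In wild type the same list had a median of −0.40, with 9 members lower at an unadjusted p under 0.05 (7.18% over all genes), and for the difference between the responses 11 of the 20 had an unadjusted p under 0.05 as higher in the knockout (6.93% over all genes).

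Genes used as estrogen response markers in other tissues were mostly higher in the knockout. Of 25 tested members 22 were higher (51.4% of all genes were), 6 at an unadjusted p under 0.05 (3.27% over all genes) and 0 lower at that level. The median was 0.29, with 0.47 in replicates 1 and 2 and 0.09 in replicates 3 and 4, and 10 of the 25 were higher in both sets (25.7% of all genes were). Inhbb, the beta B subunit of activin and inhibin, read 68.8, 76.6, 363 and 222 under vehicle and 372, 458, 425 and 424 after estrogen, a difference of 1.41 ± 0.40. All 4 estrogen arrays were above all vehicle arrays, but the vehicle arrays themselves spread widely, so the difference was 2.27 in replicates 1 and 2 and 0.55 in replicates 3 and 4. The matricellular genes Ccn2 and Ccn1, which respond to mechanical load and growth factors, were 1.04 ± 0.31 and 1.02 ± 0.34 higher. For Ccn2 the signals were 4519, 4572, 3714 and 2959.6 under vehicle and 13978, 13753, 5419.6 and 3918 after estrogen, so that replicates 1 and 2 showed most of the difference. The Wnt ligand gene Wnt4 was 0.50 ± 0.15 higher, from 398, 344, 518 and 438 to 445, 549, 849 and 634. Without 1 knockout array the count of 6 ranged from 4 to 8. In wild type 14 were higher (47.9% of all genes were) and 11 lower, with a median of 0.05. There 5 were higher at an unadjusted p under 0.05 (5.35% over all genes) and 1 lower (7.18% over all genes).

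Osteocyte genes were represented by Dmp1 and Mepe, which encode phosphoproteins of the mineralized matrix. Dmp1 read 12896, 9943, 12217 and 10158 under vehicle and 12900.0, 21447, 20413 and 23864 after estrogen. Here estrogen replicate 1 sat at the level of the highest vehicle array and the other 3 stood far above all of them, for a difference of 0.77 ± 0.18 (limma adjusted p = 0.442), or 0.95 without estrogen replicate 1. The other Dmp1 probe sets gave 0.81 and 1.04. Mepe read 616, 671, 778 and 561 under vehicle and 824, 877, 1294 and 889 after estrogen, a difference of 0.54 ± 0.18 without overlap. Ackr3, a scavenging receptor for the chemokine CXCL12, was 0.96 ± 0.24 higher, with 1925 and 979 in estrogen replicates 1 and 2 against 353 to 519 under vehicle. These 3 were the members of 13 with an unadjusted p under 0.05, all higher (23.1%, against 3.27% over all genes). Of the 13, 9 were higher (51.4% of all genes were) and 4 lower. The median was 0.27, or 0.42 without estrogen replicate 4, where the count was 5, and 0.46 without vehicle replicate 3. In wild type Dmp1 was 0.51 higher, Mepe differed by −0.02 and Ackr3 by −0.65.

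Oncostatin M and leukemia inhibitory factor act on osteoblasts through receptors of the gp130 family. Osmr, the oncostatin M receptor, read 536, 545, 627 and 511 under vehicle and 1513, 1094, 932 and 877 after estrogen. It was 0.94 ± 0.21 higher without overlap (limma adjusted p = 0.323), or 0.77 without estrogen replicate 1. Dimmer Osmr probe sets gave 0.35 ± 0.28 and −0.20 ± 0.49. Its partner receptor Lifr was 0.57 ± 0.19 higher, the ligand Lif 0.78 ± 0.29 and the feedback inhibitor Socs3 0.86 ± 0.34, though for Socs3 1 array (estrogen replicate 2, at 4029) stood far above the others at 1016 to 1276. These were 4 of 13 tested members with an unadjusted p under 0.05, with 0 lower (3.27% and 4.17% over all genes). Of the 13, 7 were higher and 6 lower, and the median was 0.06, or 0.23 without estrogen replicate 1.

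The remaining higher genes had varied roles. Vldlr, a lipoprotein receptor that also clears ligands of the coagulation system, read 1442, 1126, 1165 and 1168 under vehicle and 4106, 3188, 2977 and 1735 after estrogen, a difference of 1.22 ± 0.26 without overlap. Its other 5 probe sets were all higher, by 0.49 to 1.12. Aldh1a2, which makes retinoic acid, was 1.34 ± 0.27 higher without overlap, from 76.3, 162, 195 and 199 to 253, 329, 644 and 487. Mreg, melanoregulin, an adaptor in the transport of lysosome-related organelles, was 1.59 ± 0.35 higher and Renbp, an epimerase of sialic acid metabolism, 1.35 ± 0.34.

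Interferon-stimulated genes were lower as a group, without any single member passing. Interferons act through receptors at the cell surface, and signals from them reach the interferon-stimulated response element, ISRE, upstream of many target genes. All 32 tested members of a list of 36 were lower after estrogen in the knockout (48.6% of all genes were), with a median of −0.70 against 0.01 over all genes. At an unadjusted p under 0.05 there were 24 lower (75%, against 4.17% over all genes) and 0 higher, and in 9 members the groups did not overlap (2.88% over all genes). None passed after adjustment over all genes. The list was chosen knowing that interferon genes had stood out in these arrays, so its count and median are a description.

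**Figure D2:**
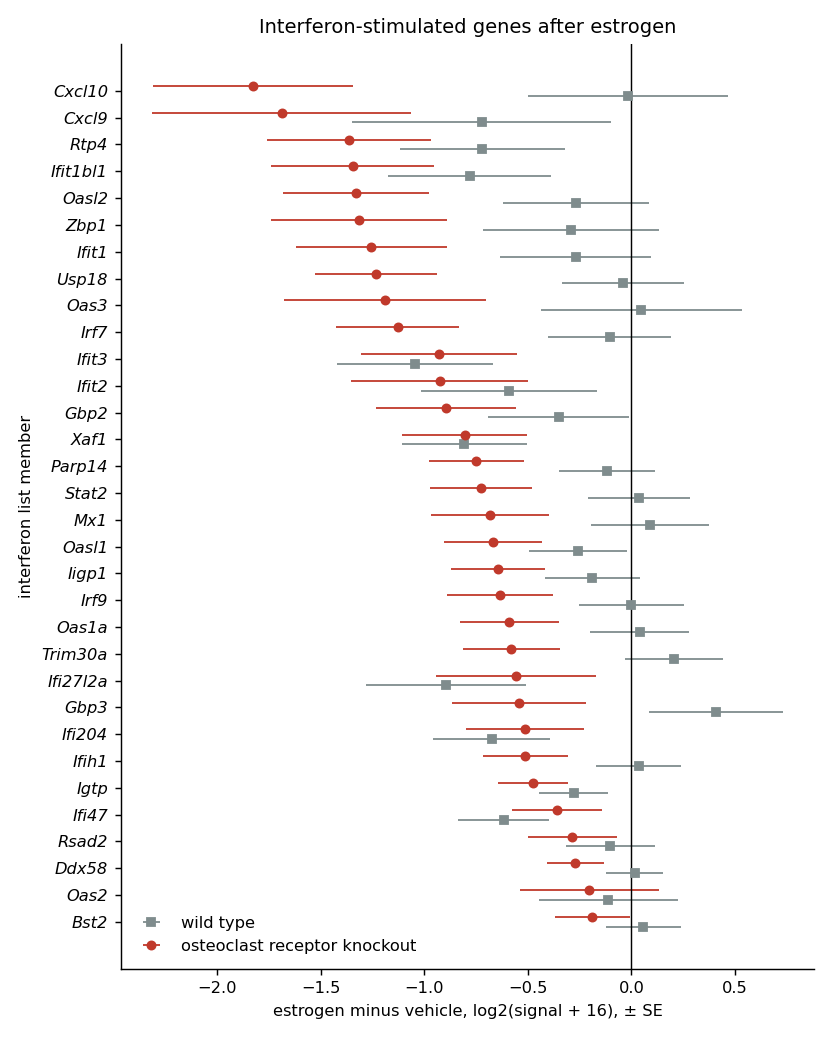
Estrogen minus vehicle on the log2(signal + 16) scale, with the standard error of the fit, for the 32 tested interferon list members in knockout (red circles) and wild-type (grey squares) femurs. All knockout points lie left of 0, from −1.82 for Cxcl10 to −0.19 for Bst2.

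Many of these genes share letters in their promoters. The core of the ISRE, GAAA and GAAA with any 2 bases between them, searched on both strands (TTTC and TTTC on the other strand) in the 250 bases before the annotated start, was present in 13 of the 23 members that had an entry in the RefSeq promoter table (56.5%), against 339 of 10235 tested genes (3.31%). It was present in 3 of 22 estrogen response genes (13.6%) and in 1 of 17 immediate early genes (5.88%). The windows below, read 5′ to 3′ on the strand of the gene from the RefSeq table on GRCm38.p6, show the 5 motif-bearing members with the largest differences after Cxcl10, and the 2 with the smallest, chosen after their values were seen. Capitals mark the ISRE core, merged where matches overlap.
Ifit1bl1 (chr19:34599428-34599465, minus strand, difference −1.35): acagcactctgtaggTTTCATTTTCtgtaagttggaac
Ifit1 (chr19:34640789-34640828, plus strand, difference −1.26): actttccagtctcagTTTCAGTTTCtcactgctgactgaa
Oas3 (chr5:120777710-120777749, minus strand, difference −1.19): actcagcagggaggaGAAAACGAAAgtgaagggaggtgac
Ifit3 (chr19:34583392-34583431, plus strand, difference −0.93): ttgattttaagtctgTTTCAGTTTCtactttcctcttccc
Gbp2 (chr3:142620589-142620628, plus strand, difference −0.90): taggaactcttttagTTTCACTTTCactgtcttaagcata
Rsad2 (chr12:26456548-26456587, minus strand, difference −0.29): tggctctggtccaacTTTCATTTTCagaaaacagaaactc
Bst2 (chr8:71537572-71537617, minus strand, difference −0.19): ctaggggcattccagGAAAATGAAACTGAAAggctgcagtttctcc
Without estrogen replicate 1 the difference was −0.47 for Oas3 (limma unadjusted p = 0.122) and −0.16 for Rsad2. The core occurred in members with large and with small differences. Over the 13 members with it the median difference was −0.72, over the 10 with a promoter entry and no match −0.74, and over the 9 with no entry −0.68. A match is a description of the letters and not a shown binding site, and no match says only that these letters are not in this window.

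The full estrogen response element, GGTCA and TGACC with any 3 bases between them, was present in 1 of the 10235 promoters (0.00977%) and in 0 of the 23 interferon, 22 estrogen response and 17 immediate early promoters. A single arm of it, AGGTCA, which the full element can contain, was found on either strand (TGACCT) in 1350 of 10235 (13.2%), in 8 of 23 interferon members (34.8%), in 3 of 22 estrogen response genes (13.6%) and in 1 of 17 immediate early genes (5.88%). Cxcl10, the member with the largest difference, encodes a chemokine that draws activated T cells and is a standard readout of interferon. Its 250 bases before the start (chr5:92348890-92349139, minus strand, GRCm38.p6), shown whole to place the ISRE core (capitals) among the letters around it, read as follows.
Cxcl10 promoter: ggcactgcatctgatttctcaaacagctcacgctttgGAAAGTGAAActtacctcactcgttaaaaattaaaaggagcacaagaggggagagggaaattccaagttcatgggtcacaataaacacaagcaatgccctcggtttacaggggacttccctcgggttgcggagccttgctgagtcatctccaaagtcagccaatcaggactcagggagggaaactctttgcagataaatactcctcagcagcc
The ISRE core in it ends 204 bases before the start.

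Among the regulators of the interferon system, Irf7, the factor that amplifies type I interferon production, read 1687, 1617, 2289 and 2504 under vehicle and 667, 1399, 1090.5 and 647 after estrogen. Every estrogen array was below every vehicle array, and the difference was −1.13 ± 0.30 (limma adjusted p = 0.474). Usp18, the protease that removes ISG15 and damps the interferon receptor, read 749, 665, 1342 and 1308 under vehicle and 302, 561, 477 and 323 after estrogen, a difference of −1.23 ± 0.29 without overlap. The transcription factor genes Stat2 and Irf9 differed by −0.72 and −0.63. Irf9 was without overlap and Stat2 was not. Without estrogen replicate 1 Irf9 differed by −0.55 (limma unadjusted p = 0.0652).

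Among the effectors, Cxcl10 read 192, 209, 611 and 701 under vehicle and 18.6, 125, 172 and 129.6 after estrogen, a difference of −1.82 ± 0.48 without overlap. Estrogen replicate 1 was the lowest by far, and vehicle replicates 3 and 4 stood far above vehicle replicates 1 and 2. Oasl2, a relative of the antiviral oligoadenylate synthetases, read 1572, 1086, 2533 and 2789 under vehicle and 482, 1120.2, 1041 and 508 after estrogen. Here estrogen replicate 2 was no lower than vehicle replicate 2, and the difference was −1.33 ± 0.35. Members of the Ifit, Oas and Gbp families have close relatives on the same chromosomes, so a probe set can read more than 1 of them.

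Several of the 15 lowest-ranked genes outside the list are also known as interferon-induced. Cmpk2, a mitochondrial nucleotide kinase, read 2101, 1834, 2207 and 2594 under vehicle and 756, 1333, 1127 and 1087 after estrogen, a difference of −1.03 ± 0.25 without overlap. Ifit1bl2 differed by −1.32 ± 0.32, the ubiquitin ligase genes Dtx3l and Rnf213 by −0.56 ± 0.12 and −0.72 ± 0.18, and the groups did not overlap in any of these 3. A second probe set of Rnf213, much dimmer, differed by 0.01.

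Interferon levels differed among the arrays within both groups. The mean log2 level of the 32 genes was 9.83, 9.60, 10.48 and 10.39 under vehicle and 8.99, 9.71, 9.35 and 8.96 after estrogen. Vehicle replicates 3 and 4 both lay above vehicle replicates 1 and 2 in 27 of the 32 genes, and estrogen replicate 2 was the highest estrogen array in 23 and above vehicle replicate 2 in 18. The list's median was −0.29 in replicates 1 and 2, where 25 of 32 were lower, and −1.21 in replicates 3 and 4, where 32 were. Without estrogen replicate 1 all 32 were still lower, with a median of −0.67 and 20 at an unadjusted p under 0.05 (2.22% over all genes). Over the 8 knockout arrays left out in turn the median ran from −0.89 to −0.60 and the count at an unadjusted p under 0.05 from 14 to 28, with 14 without estrogen replicate 4 and 16 without vehicle replicate 3.

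In wild-type femurs the same genes stood lower under vehicle. Their mean log2 level was 9.28, 9.17, 9.54 and 9.47 under vehicle and 9.30, 9.15, 8.70 and 9.27 after estrogen, so each of the 4 knockout vehicle arrays lay above all 8 wild-type arrays, while the knockout estrogen arrays lay within the wild-type range except replicate 2, which was above it. Knockout vehicle had the higher mean than wild-type vehicle in 31 of the 32 genes, and knockout estrogen the higher mean than wild-type estrogen in 20. The wild-type response had a median of −0.15, with 23 lower (52.1% of all genes were; 47.9% were higher), 5 of them at an unadjusted p under 0.05 (7.18% over all genes) and 0 higher at that level (5.35% over all genes). Wild-type groups did not overlap in 2.29% of all genes as lower and in 2.21% as higher. The knockout response was the more negative in 27 of 32 (48.9% of all genes were more negative and 51.1% more positive), and the median difference between the responses was −0.60, with 6 members at an unadjusted p under 0.05 (5.14% of all genes were lower at that level) and none passing after adjustment. For Cxcl10, which differed by −0.02 in wild type, the difference between the responses was −1.81 (limma unadjusted p = 0.0169).

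**Figure D3:**
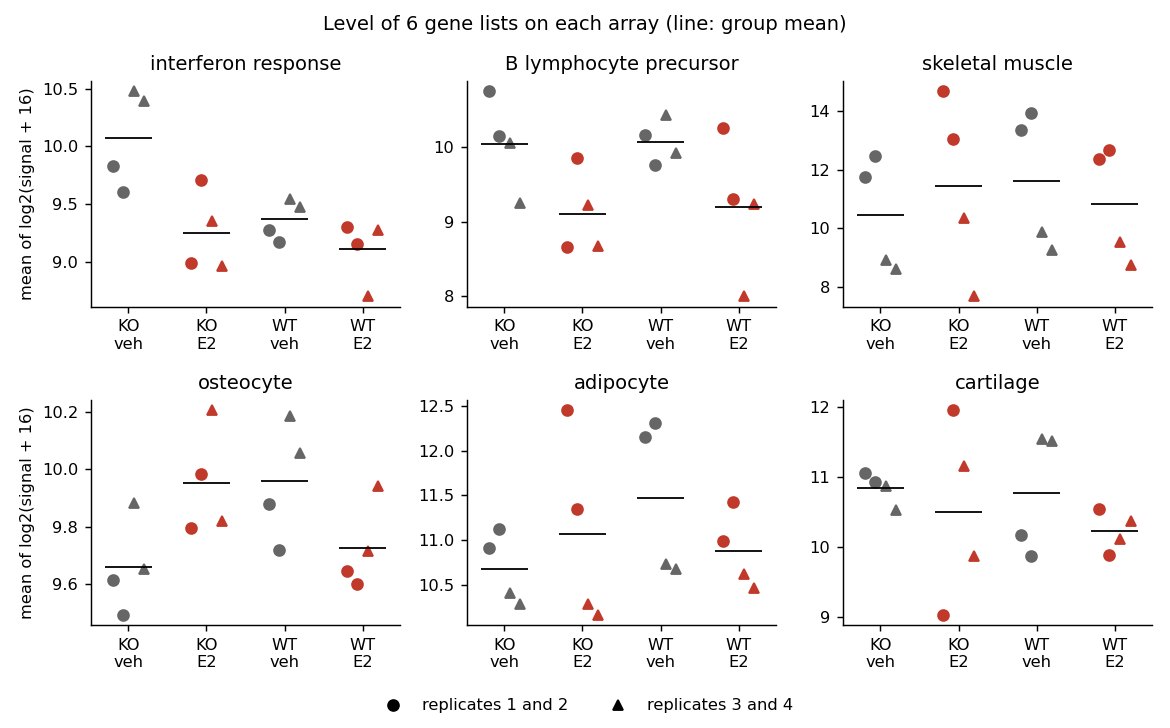
Mean of log2(signal + 16) over the members of 6 gene lists on each of the 16 arrays (KO, knockout; veh, vehicle; E2, estrogen), with circles for replicates 1 and 2, triangles for replicates 3 and 4 and a line at the group mean. The 4 knockout vehicle arrays lie above all wild-type arrays for the interferon list, and the muscle list separates the replicate sets in every group.

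Lists of immune cells that can carry interferon genes were read beside them. The monocyte and macrophage list had a median of 0.04, or −0.07 without estrogen replicate 1, and its mean log2 level ran from 9.94 to 10.18 under vehicle and from 9.87 to 10.08 after estrogen. The T lymphocyte and NK cell list had a median of −0.26, with −0.25 in replicates 1 and 2 and −0.64 in replicates 3 and 4, the set in which the interferon median was also the more negative. Of its 12 tested members 9 were lower (48.6% of all genes were), with a mean log2 level of 8.26 to 8.93 under vehicle and 8.01 to 8.66 after estrogen. The B lymphocyte precursor list, with a median of −0.69, had the opposite order of sets. Its median was −1.33 in replicates 1 and 2 and −0.41 in replicates 3 and 4, and it is described further on. The part of these cell types in the interferon difference was not tested.

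The monocyte and macrophage list of 16 tested genes was divided, with 9 higher and 7 lower. At an unadjusted p under 0.05, 5 were lower (31.2%, against 4.17% over all genes) and 1 higher (3.27% over all genes). Cd300lb, an activating receptor of myeloid cells, read 1982, 1457, 1568 and 1871 under vehicle and 604, 647, 1014 and 886 after estrogen. The groups did not overlap, and the difference was −1.13 ± 0.24 (limma adjusted p = 0.244), or −1.01 without estrogen replicate 1. The C-type lectin receptors Clec7a, which binds fungal glucans, and Clec4d differed by −0.78 ± 0.26 and −0.84 ± 0.22. Cd14, the coreceptor for bacterial lipopolysaccharide, went the other way, from 372, 468, 412 and 434 to 801, 1115, 559.7 and 554, a difference of 0.77 ± 0.25.

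Interleukin 1 genes were lower on all estrogen arrays. Il1b, the inflammatory cytokine, read 902, 1315, 767 and 1080.2 under vehicle and 562, 467, 382 and 192 after estrogen, and differed by −1.38 ± 0.42 (limma adjusted p = 0.548). Its natural antagonist Il1rn read 688, 787, 759.6 and 807 under vehicle and 549, 581, 540.5 and 399 after estrogen, a difference of −0.55 ± 0.15. Both were without overlap. With Cxcl10 and Cxcl9, shared with the interferon list, and Tnfaip3, which restrains NF-kappa B signalling, at −0.43 ± 0.17 (−0.33 without estrogen replicate 1), they made up the 5 of 12 inflammatory genes lower at an unadjusted p under 0.05, (4.17% over all genes), with 0 higher. Of the 12, 8 were lower (48.6% of all genes were) and 4 higher, and the median was −0.31. Without estrogen replicate 4 the count was 3. Plaur, the urokinase receptor, was lower as well, by −0.81 ± 0.20 without overlap, while wild-type femurs gave 0.30 and the responses differed by −1.11 (limma unadjusted p = 0.00134).

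Of the 15 lower genes 11 were also lower in wild type (52.1% of all genes were), by as little as −0.04 for Usp18 and Fgd3. For 10 of the 15 the difference between the responses had an unadjusted p under 0.05 (12.1% over all genes). The 15 were ranked on knockout arrays that enter this difference, so that count is a description. Rgs2, which limits signalling by G protein-coupled receptors, read 4094, 3172, 2382 and 2361 under vehicle and 2139.9, 1885, 1656 and 1667 after estrogen. It was lower in each replicate set by −0.84 and −0.51, the knockout difference was −0.67 ± 0.16 and the wild-type difference −0.73. All 3 other Rgs2 probe sets were lower too, by −0.82, −0.73 and −0.41. Esm1, a proteoglycan of activated endothelium, read 1002, 668, 1090.0 and 899 under vehicle and 381, 386, 546 and 518 after estrogen. Its difference was −0.97 ± 0.24 in the knockout and −1.17 in wild type. Its list of 19 endothelium genes, 11 higher and 8 lower, had a median of 0.04, or 0.10 without estrogen replicate 1.

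The last of the 15 lower genes were of mixed kind. Hhex, a homeobox factor of blood and endothelial progenitors, differed by −0.54 ± 0.14, the Rac regulator Arhgap25 by −0.73 ± 0.18, the Tec family kinase Bmx by −0.71 ± 0.18 and Glipr1 by −0.74 ± 0.19, all without overlap. Second, dimmer probe sets of Arhgap25 and Glipr1 gave −0.23 ± 0.20 and −0.32 ± 0.36. Fgd3, an exchange factor for Cdc42, differed by −0.67 ± 0.17 and the vomeronasal receptor gene Vmn1r44 by −1.79 ± 0.43. Dimmer Fgd3 probe sets gave −0.24 ± 0.29 and 0.14 ± 0.32. For Vmn1r44 the signal was 301 to 390.2 under vehicle and 54.9, 327, 25.6 and 90.4 after estrogen, so estrogen replicate 2 stayed at the vehicle level.

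B lymphocyte precursor genes had lower signals after estrogen. Of 14 tested members 13 were lower (48.6% of all genes were), 7 at an unadjusted p under 0.05 (50%, against 4.17% over all genes), with a median of −0.69. Igll1, part of the surrogate light chain of pre-B cells, read 3947, 2046, 1622 and 859.8 under vehicle and 229, 1399, 542 and 195 after estrogen, and differed by −2.04 ± 0.60. Dntt, the polymerase that adds bases to antibody gene joints, differed by −1.78 ± 0.55, and Rag1, which cuts them, by −1.56 ± 0.59, or by −1.25 without estrogen replicate 1 (limma unadjusted p = 0.0659). The groups overlapped in each of the 14. The spread among vehicle arrays was wide. The count of 7 was 2 without estrogen replicate 1 (2.22% over all genes) and also 2 without vehicle replicate 1, with medians of −0.45 and −0.58. It was 4 without estrogen replicate 4 or vehicle replicate 3. In wild type the median was −0.92 and 9 members were lower at an unadjusted p under 0.05 (7.18% over all genes), and the median difference between the responses was −0.07.

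Muscle genes had opposite medians in the genotypes. In the knockout 21 of 22 tested members were higher (51.4% of all genes were), 9 at an unadjusted p under 0.05 (40.9%, against 3.27% over all genes), with a median of 1.10. The summed signal was 112093, 196279, 15631 and 12219 under vehicle and 892521, 295337, 48562 and 7186 after estrogen, so replicates 1 and 2 were far above 3 and 4 in both groups, and estrogen arrays lay both above and below the vehicle arrays. The median was 1.89 in replicates 1 and 2 and 0.30 in replicates 3 and 4. It was 0.68 without estrogen replicate 1, where 2 members kept an unadjusted p under 0.05 (1.49% over all genes). The median and this count were 0.65 and 3 without estrogen replicate 3 and 1.79 and 19 without estrogen replicate 4, and the count was 2 without vehicle replicate 1 and 5 without vehicle replicate 4. In wild type the median was −0.97, and 15 of the 22 had an unadjusted p under 0.05 for a higher response in the knockout (6.93% over all genes).

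The 3 smallest p-values for a difference between the responses belonged to Stac3, Actc1 and Mlip, genes of muscle. Stac3, an adaptor of excitation-contraction coupling, read 150.1, 236, 23.2 and 19.5 under vehicle and 1107, 391.6, 74.4 and 118 after estrogen in the knockout, a difference of 1.64 ± 0.32, while wild type gave −0.71. Its responses differed by 2.36 (limma unadjusted p = 6.63e-05; adjusted p = 0.276). Actc1, cardiac actin, gave 0.86 in the knockout (0.51 without estrogen replicate 1) and −2.29 in wild type, a difference of 3.15 (limma unadjusted p = 0.000137), and Mlip, a nuclear envelope protein of muscle, gave 1.03 and −0.66, a difference of 1.68 (limma unadjusted p = 0.000228). Among the knockout arrays Stac3 and Actc1, like the summed muscle signal, were highest on estrogen replicate 1 and low in replicates 3 and 4. Mlip under knockout vehicle was higher in replicates 3 and 4 than in 1 and 2. Actc1 was higher still on wild-type vehicle replicates 1 and 2, at 14766 and 14753, against 9347 on knockout estrogen replicate 1. Its wild-type difference was −3.14 in replicates 1 and 2 and −1.44 in replicates 3 and 4. The part of muscle in these differences was not tested.

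Across all 12736 genes 0 passed for a difference between the knockout and the wild-type response in either direction (0.0%; lowest adjusted p = 0.276), with 882 higher in the knockout (6.93%) and 654 lower (5.14%) at an unadjusted p under 0.05. Without knockout estrogen replicate 4, 45 genes passed as higher and 1 as lower. In wild type 2 genes passed as higher (0.0157%) and 3 as lower (0.0236%), and Tex2 was the gene they shared with the knockout. The other 4, named here after their values were seen, gave smaller differences in the knockout. The kinase gene Ikbke was 1.81 higher in wild type and 0.33 ± 0.26 in the knockout, the growth factor gene Igf1 gave −1.45 and −0.24 ± 0.21, Klhl13 −1.21 and −0.06 ± 0.19, and Fam167a −1.51 and −0.61 ± 0.26. The differences between the responses had unadjusted p of 0.000804, 0.000884, 0.000481 and 0.0237 and did not pass after adjustment. Across genes, Pearson's r between the knockout and the wild-type response was −0.09.

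The genes that the study's title turns on were compared on the 8 knockout arrays by exact two-sided permutation within the replicate sets, whose 36 arrangements allow no p under 0.0556. Esr1 read 579.7, 627, 723 and 617 under vehicle and 753, 513, 484 and 409 after estrogen. It differed by −0.26 ± 0.19 (exact permutation p = 0.278, 0.556 adjusted over the 4 genes). Without estrogen replicate 1 the difference was −0.46. The sets disagreed, with 0.04 in replicates 1 and 2 and −0.57 in replicates 3 and 4. In wild type Esr1 differed by −0.89. The responses differed by 0.62 (limma unadjusted p = 0.0321), which did not pass after adjustment. Where its probe sets lie relative to the deletion is unknown, and cells other than osteoclasts still make the transcript, so neither the labels nor the deletion can be checked by them. Fasl, the gene of Fas ligand, read 116, 75.1, 94.1 and 104 under vehicle and 106, 76.5, 60.9 and 115 after estrogen. The groups overlapped, at a mean under the filter on dim genes, and the difference was −0.12 ± 0.28 (exact permutation p = 0.778). Its second probe set gave 0.17 ± 0.43. In wild type Fasl was 0.72 higher, in a fit without that filter. There the responses differed by −0.84 (limma unadjusted p = 0.0485), which did not pass after adjustment. Fas, the receptor of Fas ligand, read 342, 237, 209.7 and 336 under vehicle and 511, 207, 181 and 119 after estrogen. It differed by −0.30 ± 0.38 (exact permutation p = 0.500), or by −0.60 without estrogen replicate 1, with 0.19 in replicates 1 and 2 and −0.79 in replicates 3 and 4. In wild type Fas differed by 0.23, and the responses differed by −0.54 (limma unadjusted p = 0.325).

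Genes of the osteoclast, the cell type that lost the receptor, had a median of 0.12 (0.23 without estrogen replicate 1) over 19 tested members. Of these 15 were higher (51.4% of all genes were). At an unadjusted p under 0.05, 1 was higher (5.26%, against 3.27% over all genes) and 0 lower. Without estrogen replicate 1 this count was 3 (1.49% over all genes). Ctsk, cathepsin K, which digests collagen in the resorption pit, read 4614, 5115, 11047 and 8986 under vehicle. After estrogen it read 4110.2, 8327, 13852 and 12228, which was 0.33 ± 0.21 higher (exact permutation p = 0.278), or 0.53 without estrogen replicate 1. With 1 array left out in turn the Ctsk difference ran from 0.16 to 0.53. In wild type Ctsk differed by −0.38. The responses differed by 0.71 (limma unadjusted p = 0.0298), which did not pass after adjustment. The larger gap was between replicate sets and not between treatments. Dcstamp, needed for fusion of osteoclast precursors, was the member with the smallest p, at 0.53 ± 0.21 (limma adjusted p = 0.606), from 365, 257, 764 and 581 to 349.9, 696, 979 and 799. Among 18 tested genes of Fas signalling and apoptosis 1 was lower at an unadjusted p under 0.05 (5.56%, against 4.17% over all genes) and 0 higher. It was Bid, which relays death receptor signals to mitochondria, at −0.60 ± 0.26 (−0.41 without estrogen replicate 1, where the count was 0). The median was −0.13, or −0.04 without that array.

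**Figure D4:**
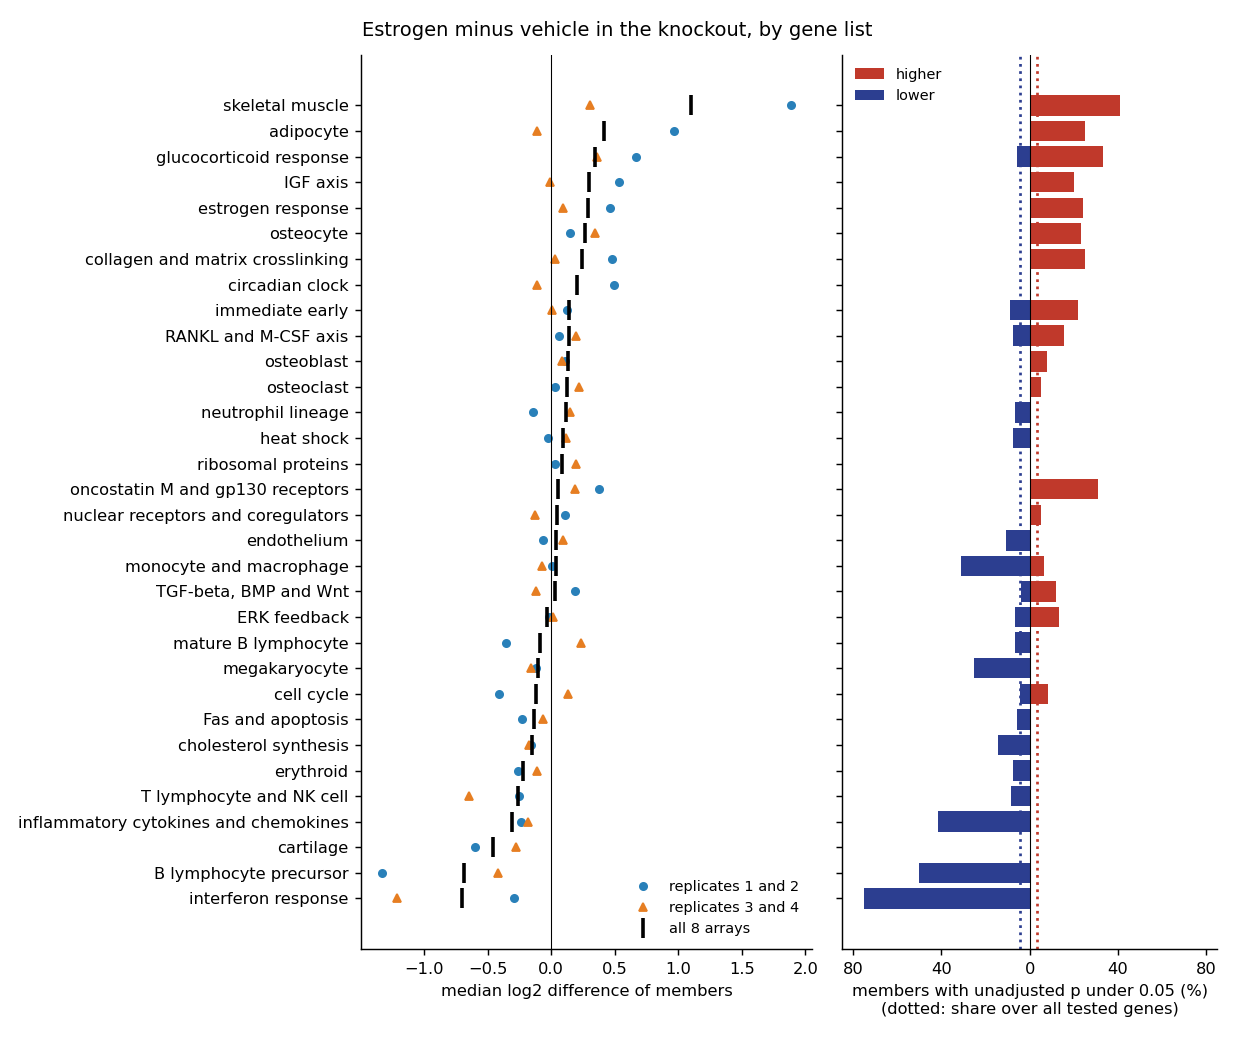
For each of 32 gene lists, the median difference of its tested members between estrogen and vehicle in the knockout (left; bars for all 8 arrays, circles for replicates 1 and 2, triangles for replicates 3 and 4) and the percentage of members higher or lower at an unadjusted p under 0.05 (right; dotted lines at 3.27% and 4.17%, the shares over all genes). Skeletal muscle (1.10) and the interferon response (−0.70) lie at the ends.

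Glucocorticoid-responsive genes were mostly higher in both genotypes. Of 18 tested members 16 were higher in the knockout (51.4% of all genes were), 6 at an unadjusted p under 0.05 (33.3%, against 3.27% over all genes) and 1 lower, with a median of 0.34. In wild type 17 were higher (47.9% of all genes were), with a median of 0.36. The metal-binding gene Mt1 read 4804, 4306, 5230.2 and 5385 under vehicle and 6797, 10165, 9241 and 9914 after estrogen, a difference of 0.86 ± 0.26 without overlap. The transcription factor genes Klf9 and Zbtb16 were 0.80 ± 0.26 and 0.91 ± 0.32 higher, with estrogen replicate 1 the highest array in both, and 0.48 and 0.57 higher without it. Leaving out 1 knockout array gave counts of 4 to 8.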

How the data were processed

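RNA from 16 mouse femurs, 1 array each, was measured on Affymetrix arrays. The deposited tables hold an intensity (signal) for each of 45101 probe sets, which the authors computed in the GCOS software, per the submitters' processing notes (version not given in the sources used here). Each array's trimmed mean was 500, so no further scaling was applied. Signals were used as log2(signal + 16). A gene was read from its probe set of highest mean, named through the platform annotation (34958 probe sets with 1 gene, 932 with several, the rest unnamed), and the dimmest 30% of genes were left out (cut at a signal of 109.1), leaving 12736 of 18194. limma 3.58.1 in R 4.3.3 (lmFit, eBayes with a variance trend) fitted the 4 groups plus the replicate set over all 16 arrays, and all p-values given without another name are limma's. The code was tested on simulated data.

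Genes named are the 15 of smallest p in each direction and members of 32 lists, with the exceptions stated. The members and lists were chosen with earlier results of these data known. An exact permutation test within replicate sets was added for 4 genes, those of the receptor, Fas ligand, Fas and cathepsin K. Promoter motifs were searched with Python 3.11.15 in the RefSeq table. The number of arrays limits the precision, and where nothing shows separate cohorts, p-values measure only the spread among these mice.

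Same-numbered arrays deviated together, with correlations of 0.178 to 0.593 (median 0.314) in all 24 pairs, all above 0.1. Arrays of another number in the same set had a median of 0.355 and of the other set −0.342. These correlations therefore show no pairing by number beyond the set. The main fit carried the set, and the number entered only as the replicate block. Alternatives were another pseudocount, filter, scaling, gene summary and fit, the replicate block and leaving out arrays.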

Additional observations from a re-analysis of the deposited data

Results flagged for a closer look

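In knockout estrogen replicate 2, Egr3 had a signal of 352 and stood below the other 3 arrays of its group by 0.841 of the group's range. In knockout vehicle replicate 1, Vldlr had a signal of 1442 and stood above the other 3 by 0.852 of the range. Both exceeded Dixon's 95% critical value for 4 samples. Such gaps were found in 2 of 68 groups examined, where chance gives about 5%.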

How the results depend on the processing

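Of 34 named genes 32 kept the sign of the knockout difference under every alternative run, and of 32 list medians 17 did. For Fasl, which lay under the filter, only 1 alternative was run, against 27 or 28 for the other genes. The exceptions among genes were Esr1 (0.043) and Fas (0.19), both within replicates 1 and 2. The 1 gene higher in the knockout became 0 without the set term, 0 with the replicate block, 0 without the variance trend, 0 on the 8 knockout arrays alone and 0 within either replicate set, but 11 with array quality weights and 3 when the 3 arrays brightest in the spike-in were left out. The 0 genes lower became 4 with array weights and 1 over all probe sets. Leaving out arrays gave 0 to 2 higher and 0 to 2 lower. At an unadjusted p under 0.05 the 417 higher genes became 211 without the set term, 915 within replicates 1 and 2 and 100 within 3 and 4, and ran from 190 to 672 with arrays left out. The 531 lower became 808 and 227 within the sets and ran from 283 to 621. The 2 higher and 3 lower wild-type genes became 0 and 0 without the set term, with the replicate block and without those 3 arrays, and ran from 0 to 45 and 0 to 46 with arrays left out. The difference between genotypes ran from 0 to 45 higher and 0 to 1 lower. The cause was not tested.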

Other observations

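Of 12 megakaryocyte genes 12 were lower after estrogen (48.6% of all genes were), with a median of −0.10, or −0.05 without estrogen replicate 1. At an unadjusted p under 0.05, 3 were lower (25%, against 4.17% over all genes), among them Plek, a platelet signalling protein, at −0.42 ± 0.15. Without estrogen replicate 1 this count was 1 (2.22% over all genes). Of 15 IGF axis genes 12 were higher (51.4% of all genes were), 3 of them at that level (20%, against 3.27% over all genes). Without estrogen replicate 1 the count was 1 (1.49% over all genes). The median was 0.30, or 0.18 without that array, with 0.54 in replicates 1 and 2 and −0.01 in replicates 3 and 4. The list of TGF-beta, BMP and Wnt genes (25) had a median of 0.03, or 0.07 without estrogen replicate 1. In it Axin2, a target and inhibitor of Wnt signalling, differed by −0.75 ± 0.25 without overlap. Bmp2, a bone-inducing ligand, differed by 0.51 ± 0.21, or 0.35 without estrogen replicate 1. The RANKL and M-CSF list (13) had a median of 0.14, or 0.23 without estrogen replicate 1. In it the decoy receptor gene Tnfrsf11b was 0.65 ± 0.31 higher and Csf1, which sustains osteoclast precursors, 0.35 ± 0.13. Adipocyte genes had a median of 0.42 over 8 members, or 0.14 without estrogen replicate 1, and cartilage genes −0.46 over 19, or 0.03 without it.

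The remaining medians, with all arrays and without estrogen replicate 1, were 0.13 and 0.21 over 13 osteoblast genes, −0.22 and −0.13 over 13 erythroid, 0.12 and 0.20 over 15 neutrophil, and −0.09 and 0.03 over 15 mature B lymphocyte genes. They were 0.05 and −0.03 over 19 nuclear receptor and coregulator genes, 0.20 and 0.01 over 15 circadian, 0.10 and 0.07 over 13 heat shock, −0.12 and 0.01 over 24 cell cycle, −0.15 and −0.06 over 14 cholesterol synthesis and 0.09 and 0.08 over 11 ribosomal protein genes. Under at least 1 alternative the neutrophil, mature B lymphocyte, nuclear receptor, circadian, heat shock, cell cycle and ribosomal medians had the other sign, as did those of the cartilage, adipocyte, monocyte, endothelium, immediate early, ERK feedback, IGF axis and TGF-beta, BMP and Wnt lists.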
